A study of Drosophila melanogaster with 12 samples.

Results

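The lysosomal alpha-mannosidase genes of Drosophila melanogaster, LManI to LManVI, were followed on 12 whole-fly expression arrays. The members are the probe sets annotated to one of these 6 symbols alone, which gave 7 of 14010 probe sets, 1 for each gene and 2 for LManV. No further probe set carried an LMan symbol together with another gene. The family was chosen by its already known low signals of LManIII and LManVI, which fell in different comparisons of these arrays. Those comparisons were not named, and all that involve S284Y flies at 30C were taken as used in the choice. Every member's values in comparisons that involve S284Y flies at 30C are therefore given as a description, with no p-value. Calls in those comparisons are counted as a description as well. The 25C comparison of the genotypes and the temperature comparison in wild type were tested, but either may also have been used in the choice. LManIII and LManVI are therefore given without a p-value there too.

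Lysosomal alpha-mannosidases are acid hydrolases that remove alpha-linked mannose from the sugar chains of glycoproteins during their breakdown in the lysosome, the digestive compartment of the cell. In humans, loss of the orthologous enzyme causes alpha-mannosidosis, in which mannose-rich oligosaccharides accumulate. Flies carry several such genes. In the gene order of the RefSeq assembly Release 6 plus ISO1 MT, LManIII, LManIV, LManV and LManVI follow each other with no other annotated gene between them, and LManI and LManII are next to each other.

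Total RNA came from whole flies, pooled per the labels from 5 males and 5 females for each array. Flies were wild type (WT) or carried the S284Y mutation of dU2AF50, the large subunit of the splicing factor U2AF, and were kept at 25C, the permissive temperature, or at 30C, the restrictive one, in 4 groups of 3 arrays. Groups follow the sample titles; the descriptions of the WT 30C arrays give 25C, and that of array 1 also the permissive wording. Nothing in the labels says that replicates are separate cultures, so p-values measure the spread between these samples, which may be technical, and in whole flies fewer cells of a type and less RNA per cell cannot be told apart.

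The deposited values are intensities, linear probe-set signals. No detection calls were used, so low signals are not shown to be above background. Depth has no meaning for arrays, and their number limits the precision. Arrays of S284Y at 25C resembled each other less than those of the other groups did: their mean correlation with the rest of the group ran from 0.839 to 0.872, against 0.946 to 0.957 elsewhere. Markers of both sexes, eggshell and yolk genes as well as accessory gland and testis genes, were measured in every group. The level of U2af50 itself did not pass the test (log2 fold change 0.27 ± 0.188 (SE) at 25C, limma adjusted p = 0.531; 0.21 ± 0.188 at 30C, adjusted p = 0.802), and its level is no check of a changed residue.

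LManVI had the widest range of the family as a ratio of its highest to its lowest signal. In WT at 25C its signal was 5542, 6140 and 6289 on arrays 1, 2 and 3, and in WT at 30C it was 2754, 2520.5 and 1815. In S284Y at 25C it was 2938, 336 and 1613, and in S284Y at 30C it was 338, 60.8 and 80.9. All S284Y arrays of either temperature lay below all WT arrays of the same temperature. The WT groups were tight, while S284Y at 25C spread from a value just above the WT 30C range on array 1 down to the level of the highest S284Y 30C array on array 2. By group means the order was WT 25C (5990 ± 396, SD, n = 3), WT 30C (2363 ± 489), S284Y 25C (1629 ± 1301) and S284Y 30C (160 ± 154). Neighbours in that order overlapped except the WT pair.

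LManV, the member next to LManVI on the chromosome, had the brightest probe set of the family. Its signal was 9313, 11732 and 9916 in WT at 25C and 6048, 5432.5 and 5453 in WT at 30C. In S284Y it was 6978, 2629 and 3908 at 25C and 1606, 838 and 492 at 30C. The 30C mutant arrays lay below all others, and only WT 30C and S284Y 25C overlapped among neighbours in the order of the means (10320 ± 1259, 5645 ± 350, 4505 ± 2235 and 978 ± 570, SD, n = 3). The second probe set of LManV was dim, between 22.3 and 194 over the 12 arrays, and all neighbouring groups overlapped there. The probe sets of this gene therefore differ in what they show at 30C, as given below.

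LManIII was of intermediate signal in WT and at the bottom of the signal range in S284Y at 30C. The values were 752, 549 and 707.5 in WT at 25C and 357, 307 and 326 in WT at 30C. In S284Y they were 424, 397 and 266 at 25C but 71.0, 8.3 and 18.5 at 30C. S284Y flies at 25C thus overlapped with WT flies at 30C, and S284Y at 30C stood below every other array. On arrays 2 and 3 of S284Y at 30C, 0.530% and 2.49% of all probe sets were dimmer, so these signals are among the lowest of the array. LManIV was dim throughout. Its signal was 302, 227 and 211 in WT at 25C, 243, 191 and 176 in WT at 30C, 173, 13.0 and 130 in S284Y at 25C, and 15.1, 23.1 and 57.0 in S284Y at 30C. All 6 mutant arrays lay below all 6 WT arrays, while temperature groups of the same genotype overlapped.

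LManII and LManI form the other pair of neighbours. LManII had signals of 2748, 2808 and 2870 in WT at 25C and 2625.5, 2246 and 2362 in WT at 30C. In S284Y they were 1877, 1344 and 553 at 25C and 854, 650.4 and 834 at 30C. All mutant arrays were again below all WT arrays, and the mutant groups overlapped with each other. LManI was dim and showed no such separation, with 243, 319 and 177 in WT at 25C, 87.6, 182 and 263 in WT at 30C, 348, 69.5 and 147 in S284Y at 25C and 48.0, 144.5 and 85.2 in S284Y at 30C. All neighbouring groups of LManI overlapped.

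**Figure D1:**
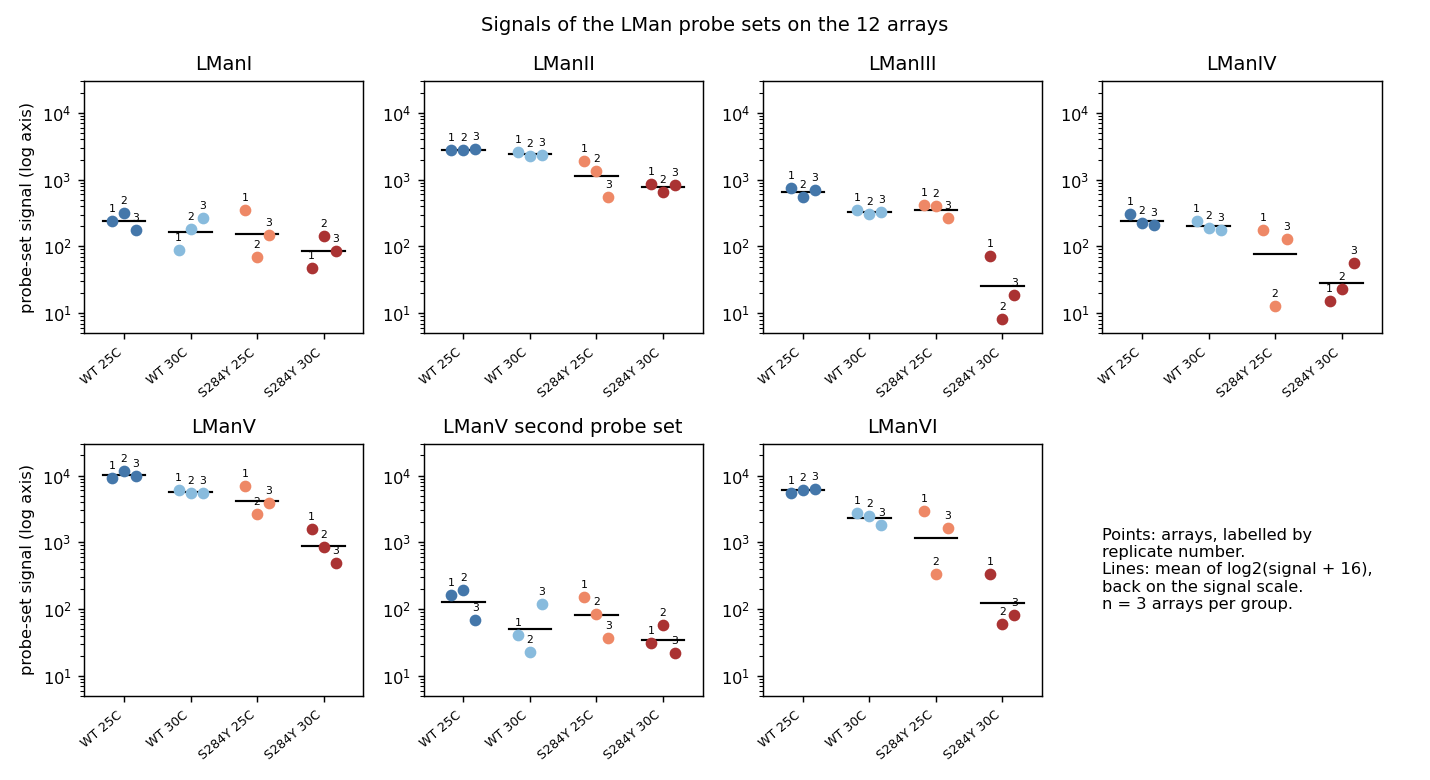
Signal of each LMan probe set (log axis) on the 12 arrays by group, with the replicate number beside each point and a line at the mean of log2(signal + 16) of 3 arrays. LManII, LManIII, LManIV, LManV and LManVI had all mutant arrays below the WT arrays of the same temperature, while LManI and the second probe set of LManV overlapped.

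At 25C, the permissive temperature, the 7 LMan probe sets all had lower fitted values in S284Y than in WT, but none passed the test. The fit was limma on log2(signal + 16), with Benjamini-Hochberg adjustment over 13966 probe sets and a threshold of 0.05. LManVI had the lowest value (-2.33 ± 0.663, SE), a 5.03-fold lower level on that scale. LManIV (-1.49 ± 0.614, adjusted p = 0.326), LManII (-1.31 ± 0.330, adjusted p = 0.0996) and LManV (-1.30 ± 0.380, adjusted p = 0.165) followed. LManIII stood at -0.87 ± 0.445, the second probe set of LManV at -0.60 ± 0.575 (adjusted p = 0.651) and LManI at -0.57 ± 0.573 (adjusted p = 0.665). The 95% interval of the difference was -3.77 to -0.90 for LManVI and -1.81 to 0.67 for LManI and the sign of the latter is not settled.

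The count of 0 of 7 at 25C stands against 0.473% of all probe sets called lower in this comparison (limma). At an unadjusted p under 0.05 it was 4 of 7, LManII, LManIV, LManV and LManVI, against 13.9% of all probe sets in either direction. In 5 of 7 probe sets all 3 S284Y arrays lay below all 3 WT arrays, as they did in 7.15% of all probe sets. The median over the 7 was -1.30, beside 0.0040 over all probe sets tested. As this comparison may have been used to choose the family, nothing is read from these counts.

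The values at 25C rest on arrays that disagree. Without array 1 of S284Y at 25C, LManII (-1.68, limma adjusted p = 0.00901), LManV (-1.67, adjusted p = 0.0227) and LManVI (-2.98) passed. Without array 3 LManII did (-0.82, adjusted p = 0.0223). Over all probe sets these fits called 885 (635 lower) and 302 (200 lower), against 110 (66 lower) in the fit of all 12 arrays. Over all alternatives the adjusted p ran from 0.00901 to 0.546 for LManII, and for LManV its lowest was 0.0227. With arrays 2 and 3 left out, which leaves 1 mutant array, no member passed and the values shrank to -1.02 for LManVI, -0.58 for LManII and -0.56 for LManV, while LManI turned to 0.51 and the second LManV probe set to 0.20. These arrays also differ in markers of the sexes. The summed signal of 12 female reproductive genes, for yolk and eggshell, was 386675, 1364950 and 462383 on arrays 1, 2 and 3 of S284Y at 25C, against 214857 to 471081 on the other 9 arrays. That of 15 male genes, of the accessory gland and testis, was 56177, 57203 and 147653, against 33548 to 77920 elsewhere. The part of these differences in the LMan values was not tested.

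At 30C, the restrictive temperature, the 7 fitted values were again all lower in S284Y than in WT. LManVI was lower by a log2 fold change of -4.09 ± 0.663 (SE), that is 17.0-fold lower, and its mean signal in S284Y was 0.0676 of that in WT. LManIII was lower by -3.05 ± 0.445 (8.26-fold) and LManV by -2.67 ± 0.380 (6.36-fold). LManIV stood at -2.29 ± 0.614, LManII at -1.62 ± 0.330 and LManI at -0.82 ± 0.573. The second probe set of LManV was at -0.39 ± 0.575, far from the brighter one.

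The 4 probe sets of LManII, LManIII, LManV and LManVI were past the threshold at 30C, all lower, where 1.17% of all probe sets were called lower. All 3 mutant arrays were below all 3 WT arrays for 5 of 7, as for 13.3% of all probe sets. The median of the 7 was -2.29, beside 0.029 over all probe sets. These counts come from a comparison taken as used to choose the family, and nothing is read from them. Leaving out S284Y 30C array 3 made the count 2, as LManII and LManVI were then no longer past the threshold. Over all probe sets that fit called 82 (64 lower), against 213 (164 lower) with no array left out. LManII also lost its call without any other single array at 30C or any single WT array at 25C. LManIV was past the threshold with arrays 2 and 3 of S284Y at 25C left out of the pooled spread, which made 5.

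Low signals make some of these sizes depend on the 16 added before the logarithm. For LManIII at 30C the value was -3.81 with 1 added and -2.08 with 64, and for LManIV it was -2.84 and -1.50. For the brighter LManVI (-4.28 and -3.63) and LManV (-2.69 and -2.60) it moved less, and for LManII hardly (-1.64 and -1.56). With 64 added the dim second LManV probe set stood at -0.25 here, and its difference between temperatures, given below, was -0.73 in WT and -0.57 in S284Y.

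**Figure D2:**
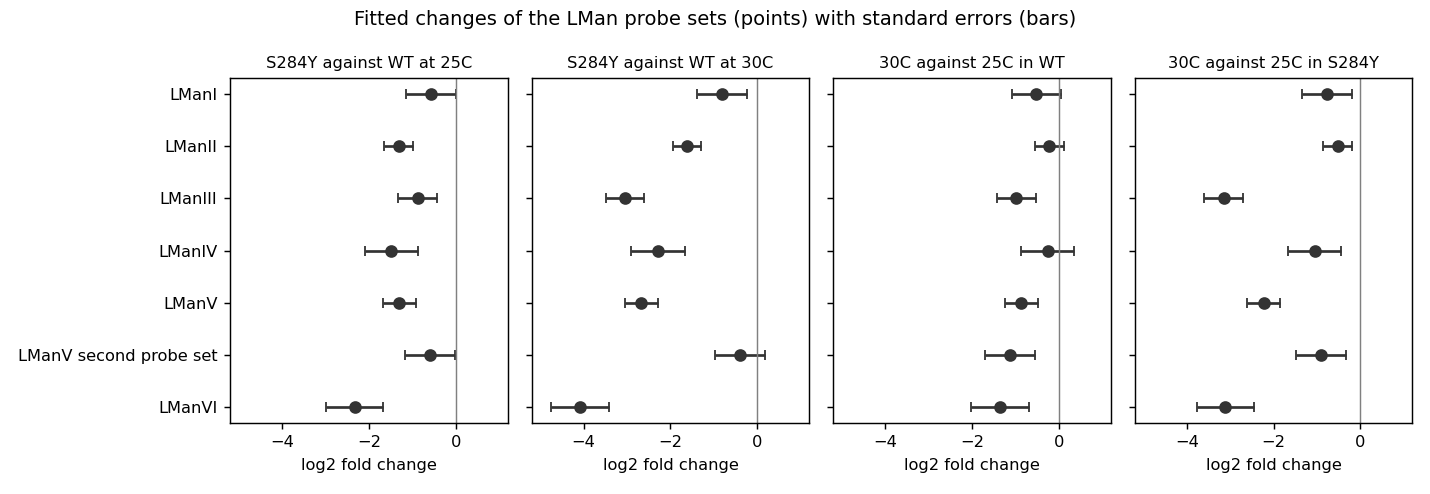
Fitted log2 fold changes (points) and standard errors (bars) of the 7 LMan probe sets in 4 comparisons, from 3 arrays per group. LManIII was at -0.87 between genotypes at 25C and at -3.05 at 30C, while LManII stood at -1.31 and -1.62.

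Temperature alone went with lower LMan values in WT flies, though no member passed. The fitted difference of 30C against 25C in WT was -1.36 ± 0.663 (SE) for LManVI and -0.98 ± 0.445 for LManIII. LManV stood at -0.86 ± 0.380 (adjusted p = 0.747) by its brighter and -1.12 ± 0.575 (adjusted p = 0.788) by its other probe set. LManI (-0.52 ± 0.573), LManIV (-0.26 ± 0.614) and LManII (-0.22 ± 0.330) were closer to 0, with adjusted p from 0.960 to 0.984. The count of 0 of 7 (limma) compares with 0.0644% of all probe sets called lower, and at an unadjusted p under 0.05 it was 2 of 7, LManIII and LManV, against 6.49% of all probe sets. For LManII, LManIII, the brighter LManV and LManVI, 4 of 7, all 3 arrays at 30C lay below all 3 at 25C, as they did for 12.2% of all probe sets. This comparison, too, may have been used to choose the family.

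The WT comparison depended on which arrays were fitted. In a fit of the 6 WT arrays alone LManVI and LManV (limma adjusted p = 0.00571) passed, with the same log2 values of -1.36 and -0.86. LManIII did not. Over all probe sets that fit called 178 (99 lower), against 13 (9 lower) in the fit of all 12 arrays. The fit of all 12 arrays pools the spread of the 4 groups. For LManVI the SD of the log2 values was 0.0967 and 0.314 in WT at 25C and 30C, and 1.58 and 1.19 in S284Y. For LManV it was 0.172 and 0.0877 in WT, and 0.706 and 0.839 in S284Y. The part of this spread in the difference between the fits was not tested. Over the alternatives the limma adjusted p reached 0.9998 for LManV.

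In S284Y flies the same temperature step gave -3.15 ± 0.445 (SE) for LManIII, -3.11 ± 0.663 for LManVI and -2.23 ± 0.380 for LManV, and these 3 of 7 were past the threshold, where 2.18% of all probe sets were called lower. This comparison was likewise taken as used to choose the family, and nothing is read from its counts. LManIV stood at -1.06 ± 0.614, the second LManV probe set at -0.92 ± 0.575, LManI at -0.76 ± 0.573 and LManII at -0.52 ± 0.330. For 2 of 7, LManIII and LManV, all 3 arrays at 30C were below all 3 at 25C, as for 13.4% of all probe sets. LManVI lost its call without any single WT array. Leaving out array 3 of the mutants at 30C gave 0 past the threshold, leaving out array 2 gave 1, and the fit of the 6 mutant arrays alone gave 0. Over all probe sets these fits called 17 (16 lower), 31 (29 lower) and 0, against 559 (305 lower) with no array left out. With arrays 2 and 3 of S284Y at 25C left out, LManVI moved to -4.42 and LManII to -1.26. LManVI did not separate fully, since its lowest array at 25C (336) was as low as its highest at 30C (338).

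The interaction, which asks whether the genotype difference changes with temperature, passed for 0 of 7 members and 0 of 13966 probe sets (limma). At an unadjusted p under 0.05 it was 2 of 7, against 8.07% of all probe sets. The fitted values were -2.17 ± 0.629 (SE) for LManIII, -1.75 ± 0.938 for LManVI, -1.37 ± 0.537 for LManV, -0.80 ± 0.869 for LManIV, -0.30 ± 0.467 for LManII, -0.25 ± 0.811 for LManI and 0.21 ± 0.813 for the second LManV probe set. With 1 added before the logarithm LManIII stood at -2.91 and with 64 at -1.29, and in the latter case LManVI (-1.37) and LManV (-1.31) were further from 0 than LManIII. The interaction uses the S284Y 30C values taken as used to choose the family, so these values and counts are a description and nothing is read from them.

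The brighter LManV probe set and LManVI moved together over the arrays. Their log2 values had a Pearson correlation of 0.978 over the 12 arrays and 0.848 after the mean of each group was removed. LManIII had 0.943 with LManV and 0.917 with LManVI, and 0.533 and 0.503 within groups. LManII, outside the group of 4 neighbouring genes, had 0.804 with LManV but 0.260 within groups, and LManI 0.641 and 0.253. LManIV, inside that group, had 0.788 with LManV and, within groups, 0.216, which is below both of these genes outside it. With LManIII it had 0.679 and -0.22 within groups, and with LManVI 0.865 and 0.572. LManV stands here and below for its brighter probe set. Its second probe set had 0.500 with LManVI and -0.068 within groups, and with the brighter one 0.602 and 0.271. These values describe 12 arrays that fall into 4 groups and share the group differences.

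The distance between LManVI and LManV differed between groups. On the log2 scale LManVI minus LManV was -0.78 ± 0.141 (SD, n = 3) in WT at 25C and -1.27 ± 0.267 in WT at 30C. It was -1.81 ± 0.954 in S284Y at 25C and -2.69 ± 0.689 in S284Y at 30C. The 3 values of S284Y at 30C (-3.47, -2.39 and -2.20) lay below all WT values, and S284Y at 25C held 1 array at -2.91 and 2 arrays, at -1.27 and -1.24, inside the WT 30C range. LManII minus LManV went the other way in temperature, from -1.86 ± 0.167 to -1.22 ± 0.0391 in WT and from -1.88 ± 0.913 to -0.17 ± 0.837 in S284Y. The level of one probe set cannot be set against that of another, so only the changes of these differences are described. Those of S284Y at 30C rest on values taken as used to choose the family, and nothing is read from them.

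**Figure D3:**
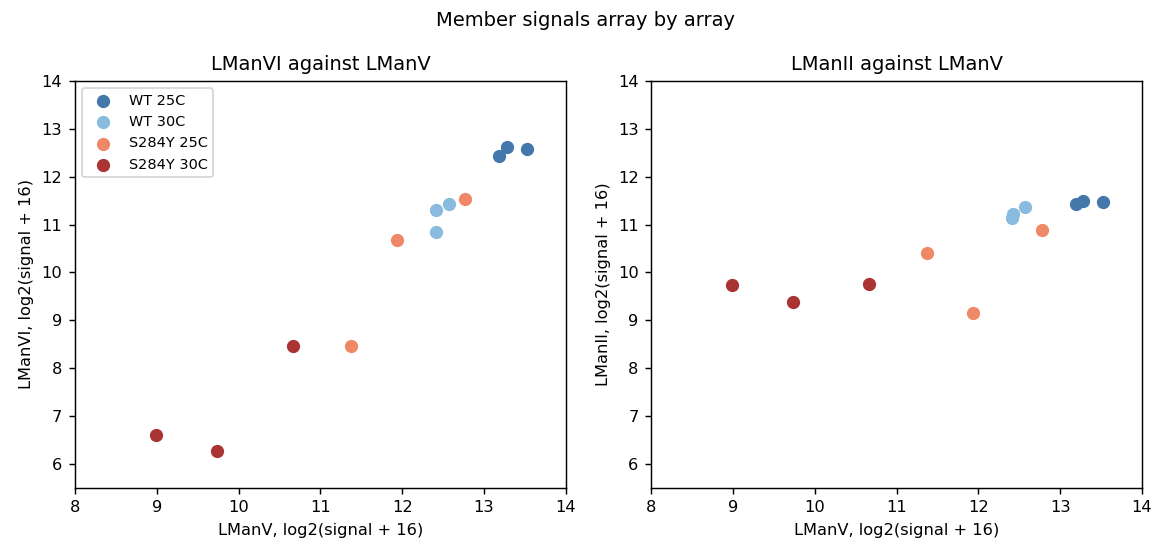
Log2(signal + 16) of LManVI (left) and LManII (right) against LManV on the 12 arrays, coloured by group. Over the 12 arrays the correlation with LManV was 0.978 for LManVI and 0.804 for LManII.

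Genes with the pattern most like each member were looked for by Pearson correlation over the 12 arrays. About 7024 genes whose mean log2 value was at or above the 40th percentile were searched. For LManVI these were LManV (0.978), CG8093 (0.967), Nplp3, a neuropeptide-like precursor (0.959), the D-amino acid oxidase gene Daao2 (0.954) and CG16743 (0.939). For LManV they were LManVI, CG8093 (0.975) and Nplp3 (0.961). Nplp3 stood at -1.44 between genotypes at 25C and -1.63 at 30C, and at -1.22 between temperatures in WT. LManV was the gene most like LManVI, and the reverse, also by Spearman correlation, where LManVI shared the place with Nplp3. By that measure 3 of 5 genes held their place for LManVI, with CG8093 at rank 14 and CG16743 at rank 36, and 2 of 3 for LManV, with CG8093 at rank 15.

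For LManIII the genes were CG32687 (0.983), the tetraspanin gene Tsp29Fb (0.957), CG9682 (0.949), LManV (0.943) and the eggshell gene Femcoat (0.943). Only 1 of these 5 held its place by Spearman correlation, and CG32687 changed far less than LManIII (-0.67 against -3.05 between genotypes at 30C). For LManII they were CG2233 (0.974), CG13492 (0.974) and the cytochrome P450 gene Cyp6g1 (0.954), of which 2 of 3 held by Spearman and Cyp6g1 came to rank 119. For LManIV they were CG6271 (0.938), the zinc-finger gene jim (0.928) and CG7017 (0.925), of which 0 of 3 held by Spearman. For LManI they were CG16727 (0.887), CG13630 (0.858) and CG16865 (0.840), and 3 of 3 held.

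The genes that flank the LMan genes gave no call. Within 3 annotated genes on each side, raw, CG12438 and SoxN were measured around the group of 4, and loh, RluA-1, RluA-2 and Grip75 around the pair. None of these 7 passed in any comparison (limma), and 1 did at an unadjusted p under 0.05, loh, between temperatures in S284Y. Between genotypes at 30C the values were -0.03 ± 0.178 (SE) for raw, a regulator of signalling in the embryo (adjusted p = 0.984), and -0.33 ± 0.507 for the transcription factor gene SoxN (adjusted p = 0.911). CG12438, the gene next to LManIII, was at -1.24 ± 0.596 (adjusted p = 0.487) with its 3 mutant arrays below the 3 WT arrays, and at -0.03 ± 0.596 (adjusted p = 0.985) at 25C.

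Among other enzymes of lysosomal sugar breakdown a single gene passed. Of 15 measured genes for lysosomal glycosidases and sulfatases, 1 fell and 0 rose between genotypes at 25C (0.473% of all probe sets were called lower and 0.315% higher) and likewise at 30C (1.17% and 0.351%). The median was -0.53 at 25C and -0.38 at 30C. At an unadjusted p under 0.05 (limma), 3 were lower and 1 higher at 25C, and 3 lower and 0 higher at 30C. Over all probe sets that share was 13.9% and 11% in either direction. The summed signal of the list was 9435 to 9534 in WT at 25C and 9281 to 10051 in WT at 30C. In S284Y it was 5056 to 8527 at 25C and 6516 to 8268 at 30C. The gene that fell was the sulfatase-family gene CG7408 (-2.68 ± 0.465, SE, adjusted p = 0.0171 at 25C; -2.05 ± 0.465, adjusted p = 0.0487 at 30C). The beta-mannosidase gene beta-Man, whose enzyme acts on the mannose link left after alpha-mannosidase, stood at -0.53 ± 0.477 (adjusted p = 0.629) at 25C and at 0.0010 ± 0.477 (adjusted p = 0.9996) at 30C. Naglu, for a lysosomal N-acetylglucosaminidase, was at -0.90 ± 0.367 (adjusted p = 0.361) at 30C. Both were named after their values were seen. Neither temperature comparison called a member of this list (limma; at an unadjusted p under 0.05, 0 lower and 1 higher in S284Y and 1 lower and 0 higher in WT).

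Genes for the trimming and processing of N-glycans in the endoplasmic reticulum and Golgi, mannosidases and other enzymes, gave no call between genotypes. Of 11 measured genes of that list 0 passed between genotypes at either temperature (limma; 0 at an unadjusted p under 0.05), and the medians were -0.29 and 0.07. Golgi alpha-Man-IIa stood at -0.62 ± 0.319 (SE, adjusted p = 0.403) at 25C and -0.14 ± 0.319 (adjusted p = 0.947) at 30C. The 1 gene of the list that passed elsewhere was alpha-Man-Ib, which rose from 25C to 30C in S284Y (1.11 ± 0.265, adjusted p = 0.0412), where 1.82% of all probe sets were called higher. Both genes were named after their values were seen. Between temperatures, at an unadjusted p under 0.05 (limma), 5 genes of the list were higher and 1 lower in S284Y, with a median of 0.31. In WT these counts were 0 and 0. The share over all probe sets, in either direction, was 25.7% in S284Y and 6.49% in WT.

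Among 24 genes for lysosomal proteases and membrane proteins 0 passed between genotypes (limma; at an unadjusted p under 0.05, 2 lower and 1 higher at 25C and 3 lower and 1 higher at 30C), with medians of -0.023 and -0.18. Among 16 subunits of the vacuolar ATPase, the proton pump that acidifies the lysosome, 0 passed as well (4 lower and 1 higher, and 1 lower and 1 higher, by the same count), with medians of -0.19 and -0.14. Between temperatures 0 genes of either list passed (limma). At an unadjusted p under 0.05, 5 protease and membrane protein genes were lower and 3 higher in S284Y and 1 lower and 2 higher in WT, and for the ATPase these counts were 2 and 2 in S284Y and 0 and 0 in WT. Over all probe sets the share at an unadjusted p under 0.05, in either direction, was 13.9% between genotypes at 25C and 11% at 30C, and 25.7% between temperatures in S284Y and 6.49% in WT.

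**Figure D4:**
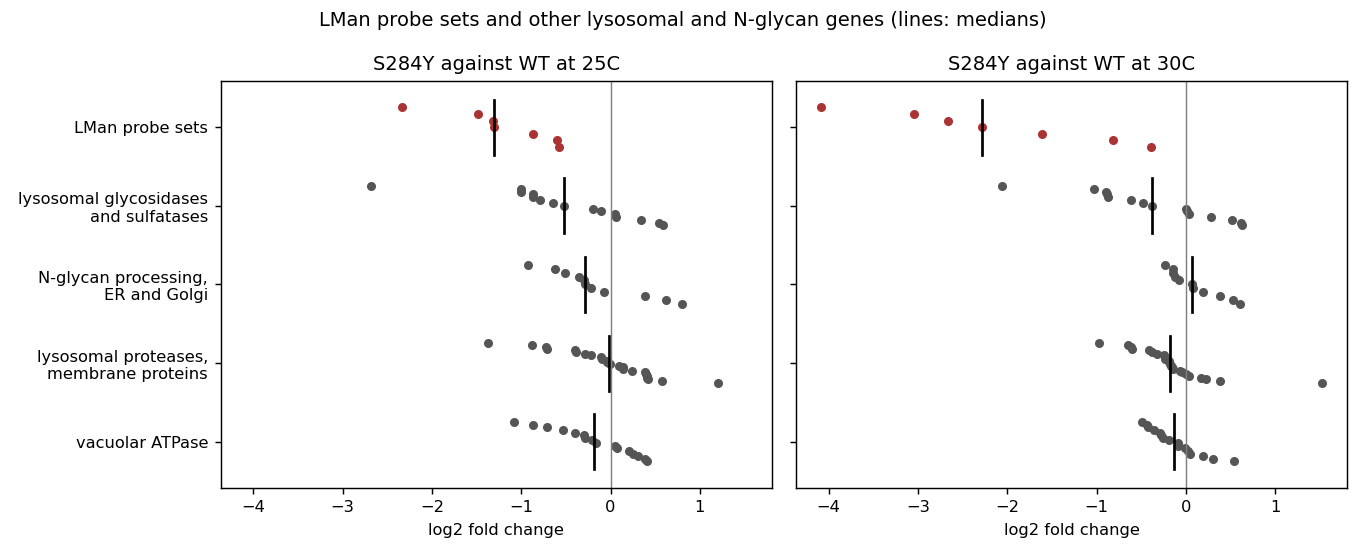
Log2 fold change of S284Y against WT at 25C (left) and 30C (right) for the 7 LMan probe sets and 4 gene lists, 1 point per probe set or gene and a line at each median. The LMan medians were -1.30 and -2.29, and the medians of the other lists lay between -0.53 and 0.07.

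Markers of some tissues differed between the groups as well. The summed signal of 6 fat body genes was 31207 to 32982 in WT at 25C, 24392 to 26813 in WT at 30C, 15429 to 21218 in S284Y at 25C and 10172 to 12329 in S284Y at 30C, with no overlap between groups. In WT at 25C the mean of this sum was 32061, of which the larval serum protein gene Lsp2 gave 11608 and the lipoprotein gene apolpp 16561, so the sum mainly follows these 2 genes. Of the 6, Lsp2 and tobi fell at 25C (0.473% of all probe sets were called lower) and Lsp2, tobi and Lsd-1 at 30C (1.17%), and 0 rose. The others did not pass: apolpp was at -0.49 and -0.80 at 25C and 30C, Fbp1 at -0.24 and 0.15 and Fbp2 at 0.56 and 0.19, and Lsd-1 was at -0.36 at 25C. The summed signal of 19 midgut enzyme genes went another way, with 259139 to 317046, 202729 to 243624, 279885 to 669789 and 234792 to 252788 in the same order. Within that list 1 fell and 1 rose at 25C, where 0.473% of all probe sets were called lower and 0.315% higher, and 8 fell and 1 rose at 30C, where these shares were 1.17% and 0.351%. The maltases Mal-A1 (-1.50 ± 0.171, SE, limma adjusted p = 0.000508) and Mal-A6 (-1.95 ± 0.264, adjusted p = 0.00184) were among those that fell at 30C. The gene that rose was Jon66Ci, at both temperatures (3.68 ± 0.639, adjusted p = 0.0171 at 25C and 3.50 ± 0.639, adjusted p = 0.0138 at 30C). The summed signal of 4 Malpighian tubule genes was 3872 to 4019 and 4509 to 5579 in WT at 25C and 30C, and 3330 to 3712.5 and 3280 to 3947 in S284Y. In WT at 25C its mean was 3942, of which ZnT35C gave 2886. Between genotypes 0 of these 4 genes passed (limma), and they differed in direction. At 30C Irk3 stood at 1.62, ZnT35C at -0.42, NaPi-T at -1.03 and Best2 at -1.33. No marker list was at 0 in any group, and the part of these tissues in the LMan values was not tested.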

How the data were processed

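The authors deposited intensity values, linear probe-set signals of an Affymetrix DrosGenome1 array, 1 per probe set and array (the sources used here do not say how they were made). Trimmed means of the 12 arrays, leaving out the lowest and highest 2%, lay between 999.12 and 999.53, so no further normalization was done. Of 14010 probe sets 44 controls were left out and 13966 tested. A single symbol was attached to 12443, several to 327 and none to 1196, and 12394 were updated by Entrez number. A gene with several probe sets is represented by its brightest in lists. Log2(signal + 16) was fitted with limma 3.58.1 in R 4.3.3 (4 group means, all 12 arrays, eBayes with trend), adjusted by Benjamini-Hochberg over all tested probe sets, threshold 0.05. Fold changes are on that scale and understate changes of dim probe sets. Errors are SE of the fit or SD over 3 arrays; 3 arrays against 3 cannot give an exact permutation p below 0.10.

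Members and lists were chosen with earlier results of these data known. Genes named are the 6 members, the 5 (LManIII, LManVI) or 3 (others) genes most like each, measured genes within 3 places on each side, and up to 4 called genes per list. For marker lists not every such gene is named. Alternatives were other offsets, scalings, a filter, other variance models, other array sets, moving WT 30C array 1 to 25C, and leaving out arrays. The scripts were tested on simulated data. Replicate numbers did not pair the arrays. Sequences and genome coordinates were not used here.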

Additional observations from a re-analysis of the deposited data

How the results depend on the processing

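No alternative reversed a member that passed the threshold under it. Of 743 member values over the alternatives 689 kept direction and side of the threshold, 27 lost their call, 13 gained one and 14 turned sign without passing. The number of member probe sets called, 0 between genotypes at 25C, 4 at 30C, 3 between temperatures in S284Y, 0 in WT and 0 for the interaction, ran over the fits that leave out 1 array from 0 to 3, 2 to 5, 0 to 4, 0 to 0 and 0 to 0. Counts that involve S284Y at 30C are a description, from which nothing is read. In the fits of the 6 arrays compared it was 0 for temperature in S284Y and 2 for temperature in WT; the cause was not tested. With the replicate block, the counts were 0, 4, 3, 0 and 0, so the block changed no member count. Same-numbered arrays showed no pairing (correlations of deviations from -0.131 to 0.0620 over 18 pairs).

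Sign changes were as follows. With WT 30C array 1 moved to 25C, LManI between temperatures in WT was 0.20 and the second LManV probe set in the interaction -0.25. Without arrays 2 and 3 of S284Y at 25C, LManI (0.51) and the second LManV probe set (0.20) turned between genotypes at 25C, as did the latter in the interaction (-0.59). Over the fits that leave out 1 array, the interaction of LManI ran from -0.75 to 0.29, that of LManII from -0.80 to 0.066 and that of the second LManV probe set from -0.22 to 0.72, and the latter's genotype difference at 30C from -0.79 to 0.13.

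Counts over all probe sets were 110, 213, 559, 13 and 0 in the same order of comparisons. Over the fits that leave out 1 array they ran from 48 to 885, 82 to 821, 17 to 2398, 1 to 99 and 0 to 84. With the replicate block they were 78, 151, 164, 1 and 0.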
